A study of Rattus norvegicus with 8 samples.

Results

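The genes described here are 9 that sense, store and release cellular iron or break down haem: Tfrc, Fth1, Ftl1, Aco1, Ireb2, Fbxl5, Ncoa4, Hmox1 and Hmox2. They were taken by gene name from the 17135 gene symbols on the arrays. For 8 of them the array files use the same name, and Ftl1, which the files call Ftl, was matched by its RefSeq accession. They carry 11 probes, 2 each for Tfrc and Fth1 and 1 for each of the other genes, and all 11 were among the 19460 probes tested.

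The RNA came from N27 cells, an immortalised rat line that the labels trace to E12 mesencephalon and describe as dopamine producing. All groups were this 1 cell line, and each group was measured on 2 single-colour Agilent arrays. Cells were labelled Control, with no treatment named, or received manganese (Mn, 150 µM, 48 h), or MPP+ (250 µM, 48 h), a known inhibitor of respiratory complex I. The fourth group, labelled 3-NPA, is taken here as 3-nitropropionic acid, which is known to block succinate dehydrogenase. The labels state neither its dose nor its time. The labels do not say whether the 2 samples of a group came from separate cultures, so p-values measure the spread between these samples, which may be technical.

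In mammalian cells, transferrin receptor 1, made from Tfrc, brings in transferrin-bound iron, and ferritin, a shell of heavy (Fth1) and light (Ftl1) chains, stores what is not used. The iron regulatory proteins made from Aco1 and Ireb2 bind hairpins called iron-responsive elements when iron is low: this stabilises Tfrc mRNA and blocks translation of the ferritin mRNAs, the latter without needing a change in mRNA level. FBXL5 marks the Ireb2 protein for degradation when iron and oxygen are present, NCOA4 carries ferritin to the lysosome, and haem oxygenases (Hmox1 inducible, Hmox2 constitutive) free iron from haem. In dopaminergic neurons, iron handling is studied because free iron and dopamine oxidation together generate reactive oxygen species.

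The probes on which the main differences rest are shown as they are on the array, 5′ to 3′, with no part marked. The 3 whole probes are 60 bases long, and for Tfrc at base 4357 and for Fbxl5 only the first 30 bases are given.
Tfrc probe at base 2139: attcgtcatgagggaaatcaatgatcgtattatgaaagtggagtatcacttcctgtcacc
Tfrc probe at base 4357: actcacccaagttacatccaccagattatt
Ireb2: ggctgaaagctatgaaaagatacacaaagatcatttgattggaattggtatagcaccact
Fbxl5: tgcactttacttatagcacatttcttgtgt
Hmox1: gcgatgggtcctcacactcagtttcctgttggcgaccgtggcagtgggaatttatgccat
The Tfrc probes (A_44_P313767 and A_44_P214811) start at bases 2139 and 4357 of the same transcript, NM_022712, so they read different stretches of it. In the files' rn4 (RGSC v3.4) coordinates, the first lies on the minus strand at chr11:69978846-69980500, a span of 1655 bases for a 60-base probe, so it crosses a splice junction. The second lies at chr11:69976628-69976687. The others lie at chr8:58476082-58476141 (Ireb2), chr14:72509736-72509795 (Fbxl5) and chr19:13969336-13969395 (Hmox1). No rn4 annotation was used here, so probes were not assigned to coding sequence or UTR.

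The ferritin probes overlap each other or near-identical copies, which limits what they can separate. The 2 Fth1 probes (chr1:212432616-212432675 and chr1:212432648-212432709) share a run of 28 bases and are not independent readings of the gene.
Run shared by the Fth1 probes, in capitals: GGCTGCCTTTATCTTTTCTATAAGTTGC
The Ftl1 probe shares 53 of its 60 bases with the probe of a ferritin-like gene, LOC100362384. Its deposited position is chrX:139087739-139087796, while the RefSeq table of the later GRCr8 assembly places Ftl1 on chromosome 1. Values of this probe may therefore hold signal of ferritin light chain copies and are uncertain for Ftl1 alone.
First 30 bases shared by the Ftl1 and LOC100362384 probes, in capitals: CCTGGAGCCTCTCCCAAGTCTTGGACCAAG
The remaining probes lie at chr5:57591506-57591565 (Aco1), chr10:10914212-10914271 (Hmox2) and chr16:7660568-7660627 (Ncoa4).

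Levels are log2 processed intensities relative to the 75th percentile of each array, which is set to 0, and a difference of 1 is 2-fold. Differences were tested with limma over all 8 arrays, with Benjamini-Hochberg adjustment over the 19460 probes, and were called at an adjusted p below 0.05. Levels of member probes are not set against each other, since probes differ in brightness. The marker sums given below add levels of several probes, so bright probes weigh most in them. The 3 comparisons with control share the same 2 control arrays. Arrays of a group correlated at 0.99 to 0.997, the 75th percentile ran from 1030 to 1280 intensity units and 0 spots were saturated. Spots well above background ran from 32711 to 34060 on the control arrays and from 37964 to 41354 on the toxin arrays. There was 1 slide and 1 scan for all arrays. The 3-NPA arrays were image-extracted in the later of 2 runs, and control and MPP+ shared 2 array columns while Mn and 3-NPA shared the others, so run or position and group cannot be told apart there. Of markers of dopaminergic and neuronal cells, 5 of 7 genes, Th and Nr4a2 among them, were well above background on all 8 arrays, and Slc6a3, the dopamine transporter, was on none.

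With Mn, Tfrc was the member that rose: 1 of 11 member probes was called, in a comparison where 7.06% of all probes tested were called (4.16% higher, 2.9% lower). With MPP+, 0 of 11 were called, against 13.1% of all probes (7.09% higher, 6.04% lower), and with 3-NPA, 1 of 11 was called, Fbxl5 lower, against 37% of all probes (21.6% higher, 15.4% lower). The counts of called members are therefore below the background for MPP+ and 3-NPA and near it for Mn. The member probes whose arrays did not overlap control numbered 6, 7 and 6 of 11 with Mn, MPP+ and 3-NPA, where 50.1%, 63% and 71.5% of all probes did not overlap. The median log2 difference over the 11 probes was -0.10, -0.11 and -0.01, against -0.01, 0.02 and 0.05 over all probes. In limma's fit, adjusted p-values of MPP+ differences began at 0.0502 (Fbxl5), and 4 of 11 members had an unadjusted p below 0.05, as did 30.7% of all probes. By the other settings tried, from 0 to 3 members were called with MPP+, where from 2.36% to 34% of all probes were.

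**Figure D1:**
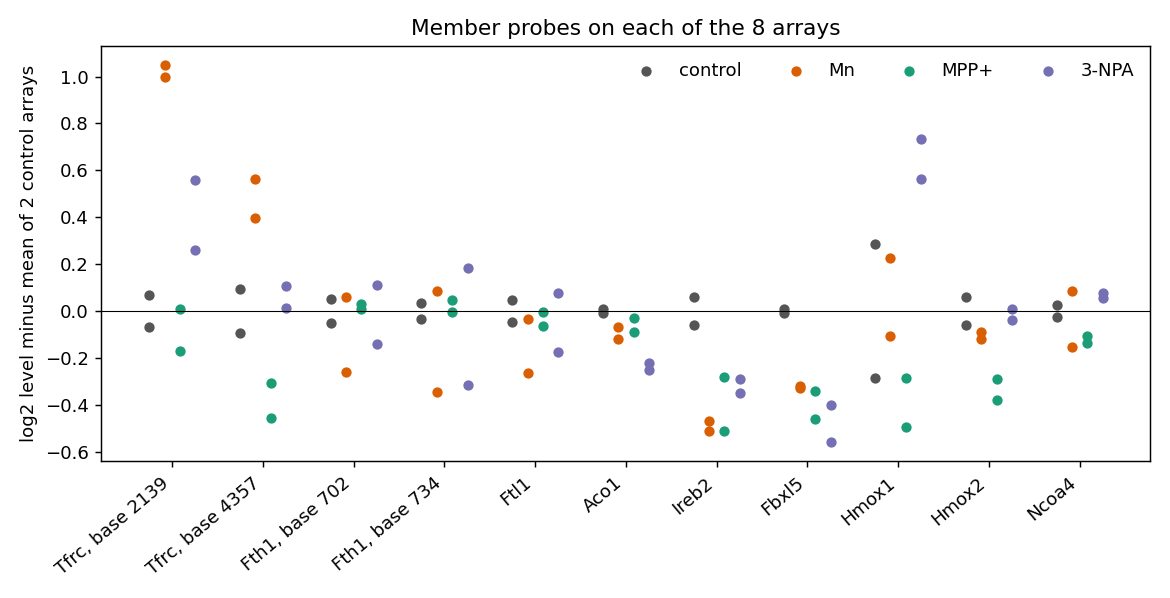
Level of each member probe on each of the 8 arrays, as the log2 level minus the mean of the 2 control arrays of that probe; each point is 1 array and colours are the 4 groups. The Mn points of both Tfrc probes lie above their control points, the ferritin points lie around 0, and the toxin points of Ireb2 and Fbxl5 lie below their control points.

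Tfrc, the receptor for transferrin-bound iron, was highest with Mn on both probes. At base 4357 its level was 3.10 and 3.29 on the control arrays, 3.59 and 3.76 with Mn, 2.74 and 2.89 with MPP+, and 3.21 and 3.30 with 3-NPA. Both Mn arrays were above all other arrays, both MPP+ arrays were below them, and the 3-NPA arrays overlapped the control arrays. The group means were 3.67 ± 0.12 (Mn), 3.26 ± 0.06 (3-NPA), 3.20 ± 0.14 (control) and 2.82 ± 0.10 (MPP+) (SD, n = 2 arrays, as for all group means below). In that order, 3-NPA and control were the neighbours that did not differ beyond their spread.

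At base 2139 the level of Tfrc was -4.89 and -4.75 on the control arrays, -3.82 and -3.77 with Mn, -4.81 and -4.99 with MPP+, and -4.26 and -4.56 with 3-NPA. The probe was not well above background on either control array, so its control level is only a bound. Again the Mn arrays were highest, the 3-NPA arrays lay between Mn and control, and the MPP+ arrays overlapped control. The means ran from -3.79 ± 0.04 (Mn) over -4.41 ± 0.21 (3-NPA) and -4.82 ± 0.10 (control) to -4.90 ± 0.13 (MPP+). The 2 spots of this probe on MPP+ array 2 differed more than elsewhere (SD 0.85 on the log2 scale, against at most 0.24 on the other arrays).

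The rise of Tfrc with Mn was called at base 2139, at least 1.75-fold (fitted log2 difference 1.02 ± 0.13 SE, adjusted p = 0.0125). Here and below, "at least" takes the dim group at the lowest signal of probes well above background on its arrays, or at its own where that was higher. It bounds the dim level only and does not include the spread between arrays. At base 4357 the difference was 0.48 ± 0.12 (95% interval 0.19 to 0.77) and was not called (adjusted p = 0.071). Which of the probes is called depends on the processing. With normexp background correction, base 2139 gave 0.36 (adjusted p = 0.061) and base 4357 was called (adjusted p = 0.0235), and the mean of both probes was called (0.75, adjusted p = 0.0133). The call at base 2139 was lost without Mn array 1 (adjusted p = 0.0551) or Mn array 2 (adjusted p = 0.0518).

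With MPP+, Tfrc differed from control by -0.38 ± 0.12 at base 4357 (adjusted p = 0.0918, 95% interval -0.67 to -0.09). At base 2139, where the control level is only a bound, no fold against control is given for MPP+ (adjusted p = 0.722). With 3-NPA, Tfrc was at least 1.14-fold higher at base 2139 (adjusted p = 0.0586) and differed by 0.06 at base 4357 (adjusted p = 0.717). None of these 4 was called. The sign at base 4357 with 3-NPA turned when each array was centred on its median (-0.08).

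Directly between toxins, Tfrc was higher with Mn than with MPP+ on both probes. The difference was 2.15-fold at base 2139 (log2 1.1 ± 0.13, adjusted p = 0.00963) and 1.81-fold at base 4357 (0.86 ± 0.12, adjusted p = 0.0142). These were the 2 member probes called in that comparison, where 8.37% of all probes were (4.5% higher, 3.87% lower). The arrays did not overlap for 5 member probes, against 61.6% of all probes. Without either MPP+ array neither was called (adjusted p from 0.0542 to 0.102), and without Mn array 2 base 4357 was not (0.0516). Dose in µM differed between the compounds, so the comparison is between these 2 treatments as given.

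Tfrc was also higher with Mn than with 3-NPA, 1.53-fold at base 2139 (log2 0.62, adjusted p = 0.0201) and 1.34-fold at base 4357 (0.42, adjusted p = 0.0475). These were again the 2 member probes called, against 27.2% of all probes (11.2% higher, 16% lower), and the arrays did not overlap for 7 members, against 65.6% of all probes. Without 3-NPA array 2, without Mn array 1 or without Mn array 2, neither was called (adjusted p from 0.0603 to 0.16). Without 3-NPA array 1 (adjusted p = 0.204) or without either MPP+ array (0.0819 each), base 4357 was not. Between MPP+ and 3-NPA, Tfrc was lower with MPP+ at base 2139 (-0.49, 1.4-fold, adjusted p = 0.0396) and at base 4357 (-0.44, 1.36-fold, adjusted p = 0.0379). When each array was centred on its median, which shifts all probes in that comparison from a median of -0.02 to 0.23, these became -0.23 and -0.19 and were not called. Quantile normalization also lost the call at base 2139 (-0.21, adjusted p = 0.314). Of the other settings tried, 12 of 19 lost the call at base 2139 and 6 of 21 at base 4357.

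**Figure D2:**
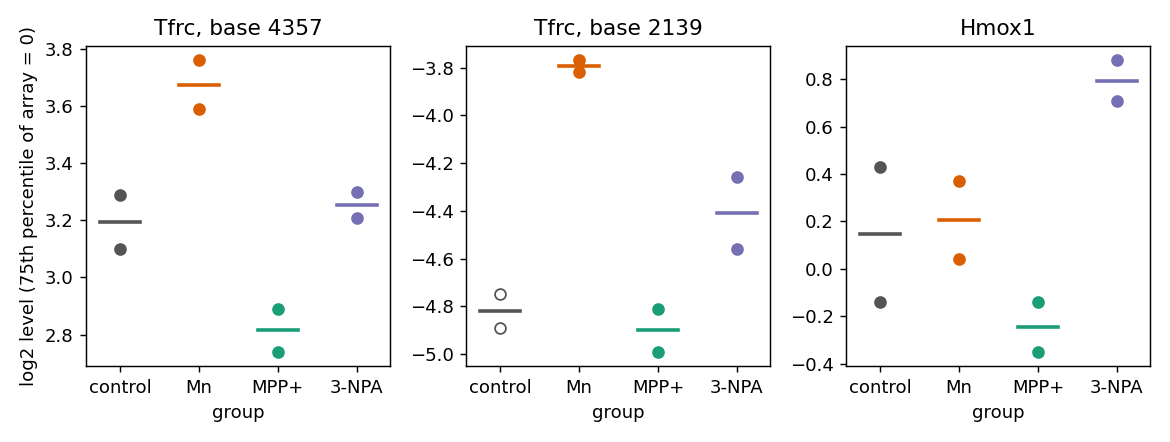
Log2 level (75th percentile of each array at 0) of both Tfrc probes and of Hmox1 in the 4 groups; points are arrays, bars are means of 2 arrays, open points were not well above background, and each panel has its own axis. Mn is highest for Tfrc on both probes, 3-NPA is highest for Hmox1, and the 2 control arrays of Hmox1 lie 0.57 apart.

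The promoter of Tfrc in the RefSeq table (GRCr8 assembly) is shown because this gene carries the clearest differences and is known to be driven by hypoxia-inducible factors. ACGTG is 1 form of their core motif, and only this form was counted. The 60 bases before its start lie on the minus strand at chr11:81690319-81690378, with the motif in capitals, 31 bases before the start.
Tfrc, bases before the start: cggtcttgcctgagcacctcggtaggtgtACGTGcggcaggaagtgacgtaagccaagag
Of the 9 genes, 6 had a promoter window in the table, with 2 windows for Hmox2. On either strand of windows of 300 bases, ACGTG was found 1 time in Tfrc, 2 times in Fbxl5, 1 time in Ncoa4 and 1 time in 1 of the Hmox2 windows, and 0 times in Aco1 and Ireb2. It is held by 6444 of 33469 promoters (19.3%). The core of the antioxidant response element bound by NRF2, TGACNNNGC, was found 1 time in Ncoa4 and 1 time in 1 Hmox2 window, and is held by 12.1% of promoters. An ACGTG can lie wholly inside a TGACNNNGC match. Ncoa4 and the same Hmox2 window held both motifs, and whether the sites coincide was not checked. The motifs were counted separately, and a match is a description of these letters only.

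The ferritin genes showed no called difference. Fth1, the heavy chain with the ferroxidase site, gave 6.89 and 6.99 on the control arrays at base 702, 7.00 and 6.68 with Mn, 6.97 and 6.95 with MPP+, and 7.05 and 6.80 with 3-NPA. At base 734 the values were 6.95 and 7.02, 7.07 and 6.64, 7.03 and 6.98, and 7.17 and 6.67 in the same order. On both probes the Mn and the 3-NPA arrays fell on either side of the control arrays, so the groups overlapped. Ftl1, the light chain that supports iron mineral formation, gave 7.61 and 7.70 on the control arrays, 7.62 and 7.39 with Mn, 7.59 and 7.65 with MPP+, and 7.73 and 7.48 with 3-NPA. Here too the second Mn and 3-NPA arrays were the lowest, and each toxin group overlapped control.

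For Fth1 at base 702 the differences from control were -0.10 with Mn (95% interval -0.45 to 0.25), 0.01 with MPP+ (-0.33 to 0.36) and -0.01 with 3-NPA (-0.36 to 0.33), with adjusted p = 0.692, 0.959 and 0.945. At base 734 they were -0.13, 0.02 and -0.06. For Ftl1 they were -0.15 (-0.47 to 0.16), -0.04 (-0.35 to 0.28) and -0.05 (-0.37 to 0.26), with adjusted p = 0.497, 0.881 and 0.776. The intervals at base 734 were wider, -0.63 to 0.37, -0.48 to 0.52 and -0.57 to 0.44, and a difference that was not called does not show equal levels. The sign of the small Fth1 differences turned without Mn array 2 (0.06 at base 702) and without 3-NPA array 2 (0.11).

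Probes of other ferritin-like genes were looked at after their values were seen, because they could share signal with the members. LOC691895, named Fthl17b in RefSeq, a ferritin heavy chain 17-like gene, was not well above background on the control arrays and rose with 3-NPA on both of its probes. One went from -5.06 and -4.59 on the control arrays to -2.73 and -2.59, at least 3.85-fold (fitted log2 difference 2.17 ± 0.17, adjusted p = 0.000544). The other went from -6.69 and -6.71 to -3.15 and -3.04, at least 2.84-fold (3.61 ± 0.32, adjusted p = 0.000799). Each is a single spot per array, and neither was called with Mn or MPP+. LOC688591, a ferritin light chain-like gene, rose 2.17-fold with 3-NPA, from 3.70 and 3.62 to 4.72 and 4.84 (1.12 ± 0.20, adjusted p = 0.00861). Without 3-NPA array 2 its adjusted p was 0.0521. LOC100362384, which shares most of its probe with Ftl1, differed by -0.15, -0.04 and -0.10 with Mn, MPP+ and 3-NPA and was not called. Ftmt, mitochondrial ferritin, was not well above background on any array.

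Among the genes that sense iron, Fbxl5 fell with 3-NPA, and the other 8 differences from control of Fbxl5, Ireb2 and Aco1 were not called. Fbxl5, the iron-binding subunit of the ligase that degrades the Ireb2 protein, gave 0.75 and 0.77 on the control arrays, 0.44 and 0.43 with Mn, 0.30 and 0.42 with MPP+, and 0.20 and 0.36 with 3-NPA. All toxin arrays were below both control arrays, and the toxin groups followed each other without a called difference, at means of 0.43 ± 0.01 (Mn), 0.36 ± 0.09 (MPP+) and 0.28 ± 0.11 (3-NPA) against 0.76 ± 0.01 (control). With 3-NPA it fell 1.4-fold (log2 difference -0.48 ± 0.10, adjusted p = 0.0126, 95% interval -0.72 to -0.24). Without 3-NPA array 1 this was not called (adjusted p = 0.0829). With MPP+ the difference was -0.40 ± 0.10 (adjusted p = 0.0502), called under 7 of 22 other settings, and with Mn it was -0.33 ± 0.10 (adjusted p = 0.108).

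Ireb2, which encodes iron regulatory protein 2, gave -2.77 and -2.65 on the control arrays, -3.18 and -3.22 with Mn, -2.99 and -3.22 with MPP+, and -3.06 and -3.00 with 3-NPA. No toxin array reached the control arrays, and the toxin groups overlapped or lay close to each other. The differences were -0.49 ± 0.11 with Mn (adjusted p = 0.0564), -0.40 with MPP+ (adjusted p = 0.0695) and -0.32 with 3-NPA (adjusted p = 0.0672), none of them called. The 95% intervals were -0.76 to -0.22, -0.67 to -0.13 and -0.59 to -0.05. With a filter that kept only probes well above background on all 8 arrays, the 3 differences were called (adjusted p = 0.0344, 0.0431 and 0.0461), where 9.58%, 18.5% and 42.7% of all probes were. Most other settings gave no call: 20 of 22 with Mn, 21 of 22 with MPP+ and 18 of 21 with 3-NPA.

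Aco1, which encodes iron regulatory protein 1, a cytosolic aconitase when it holds an iron-sulphur cluster, was read by up to 10 spots per array. It gave 1.35 and 1.37 on the control arrays, 1.24 and 1.29 with Mn, 1.27 and 1.33 with MPP+, and 1.11 and 1.14 with 3-NPA. The 3-NPA arrays were lowest and the Mn and MPP+ arrays overlapped. The difference with 3-NPA was -0.23 ± 0.08 (95% interval -0.44 to -0.03, adjusted p = 0.0742), and those with Mn and MPP+ were -0.09 and -0.06 (adjusted p = 0.519 and 0.684). When arrays were centred on their medians, which moved the median of all probes with 3-NPA from 0.05 to -0.09, the 3-NPA difference was -0.38 and was called (adjusted p = 0.0388), and that with MPP+ turned to 0.05.

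Ncoa4, the receptor that takes ferritin to autophagosomes, stayed close to its control values of -3.77 and -3.72. It gave -3.90 and -3.66 with Mn, -3.85 and -3.88 with MPP+, and -3.67 and -3.69 with 3-NPA. The MPP+ arrays were below control, the 3-NPA arrays above, and the Mn arrays on either side. The differences were -0.03, -0.11 and 0.07 (adjusted p = 0.875, 0.504 and 0.625), and under some other settings the sign with Mn and with 3-NPA turned.

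Hmox1, the stress-inducible haem oxygenase, was highest with 3-NPA and lowest with MPP+. Its probe has 10 spots on each array and gave 0.43 and -0.14 on the control arrays, 0.04 and 0.37 with Mn, -0.35 and -0.14 with MPP+, and 0.88 and 0.71 with 3-NPA. The control arrays lay 0.57 apart, while spots within 1 array had an SD of at most 0.11, so the gap between these samples was larger than that between spots. Both 3-NPA arrays were above all others, the Mn arrays lay within the control range, and the MPP+ arrays lay at or below the lower control array. The means were 0.79 ± 0.11 (3-NPA), 0.20 ± 0.24 (Mn), 0.15 ± 0.40 (control) and -0.25 ± 0.15 (MPP+). Of markers of microglia and macrophages, 4 of 6 genes were well above background on all 8 arrays, while Ptprc, which defines leukocytes, was on none. Summed over their 10 probes, their linear level relative to the 75th percentile was 0.811 to 0.834 with 3-NPA, 0.628 to 0.682 with Mn, 0.539 to 0.642 in control and 0.37 to 0.449 with MPP+. Single genes differed between control and 3-NPA. Cd68 averaged -3.48 and -2.22, Cx3cr1 -2.76 and -2, and Itgam on A_64_P023848 -3.84 and -3.32. Aif1 averaged -3.19 and -3.19 on A_64_P047714, and -3.82 and -3.44 on A_64_P130983. Csf1r averaged -5.36 and -5.82 on A_44_P257582, which was well above background on only 3 arrays. On A_64_P351634, well above on 6 arrays, Csf1r averaged -5.68 and -5.24. The sum over 10 dopaminergic and neuronal probes was 2.3 in control, 2.69 to 3.41 with Mn, 2.82 to 3.05 with MPP+ and 5.01 to 5.51 with 3-NPA. These genes did not move together. Tubb3, the brightest of these probes in each group, averaged 0.33 in control and 2.1 with 3-NPA. Map2 averaged -1.4 and -2.21, and Th -1.89 and -1.78. Of erythroid markers, 1 of 4 genes was well above background on all arrays and Hbb was on none. The part of these markers in the Hmox1 result was not tested.

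Against control, no Hmox1 difference was called. With 3-NPA it was 0.65 ± 0.22, 1.57-fold (95% interval 0.11 to 1.18, adjusted p = 0.0628), with 0.93 and a call without control array 1 (adjusted p = 0.0223) and 0.36 without control array 2 (adjusted p = 0.202). With MPP+ it was -0.39 ± 0.22 (-0.93 to 0.14, adjusted p = 0.277), with -0.11 and -0.68 without control array 1 and 2 (adjusted p = 0.749 and 0.0847). With Mn it was 0.05 ± 0.22 (-0.48 to 0.59, adjusted p = 0.899), with 0.34 and -0.23. Between toxins, Hmox1 was 2.06-fold lower with MPP+ than with 3-NPA (log2 difference -1.04 ± 0.22, adjusted p = 0.0174). This was 1 of 4 member probes called lower with MPP+ than with 3-NPA, with both Tfrc probes and Hmox2, where 29.7% of all probes were called (12.4% higher, 17.3% lower). The arrays did not overlap for 6 members, against 75.9% of all probes. Without any 1 of the MPP+ or 3-NPA arrays, 0 members were called in that comparison (Hmox1 adjusted p from 0.0634 to 0.0939). Without either Mn array, 2 were. The difference between Mn and 3-NPA was -0.59 ± 0.22 (adjusted p = 0.0983).

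Hmox2, the constitutive haem oxygenase, gave 2.48 and 2.36 on the control arrays, 2.33 and 2.30 with Mn, 2.04 and 2.13 with MPP+, and 2.38 and 2.43 with 3-NPA. The MPP+ arrays were below all others, and the 3-NPA arrays lay within the control range. The difference with MPP+ was -0.33 ± 0.09 (95% interval -0.56 to -0.11, adjusted p = 0.0689), and those with Mn and 3-NPA were -0.10 (adjusted p = 0.523) and -0.01 (adjusted p = 0.923). Hmox2 was 1.25-fold lower with MPP+ than with 3-NPA (-0.32 ± 0.09, adjusted p = 0.0469). Centring on array medians brought that difference to -0.06 (adjusted p = 0.679).

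**Figure D3:**
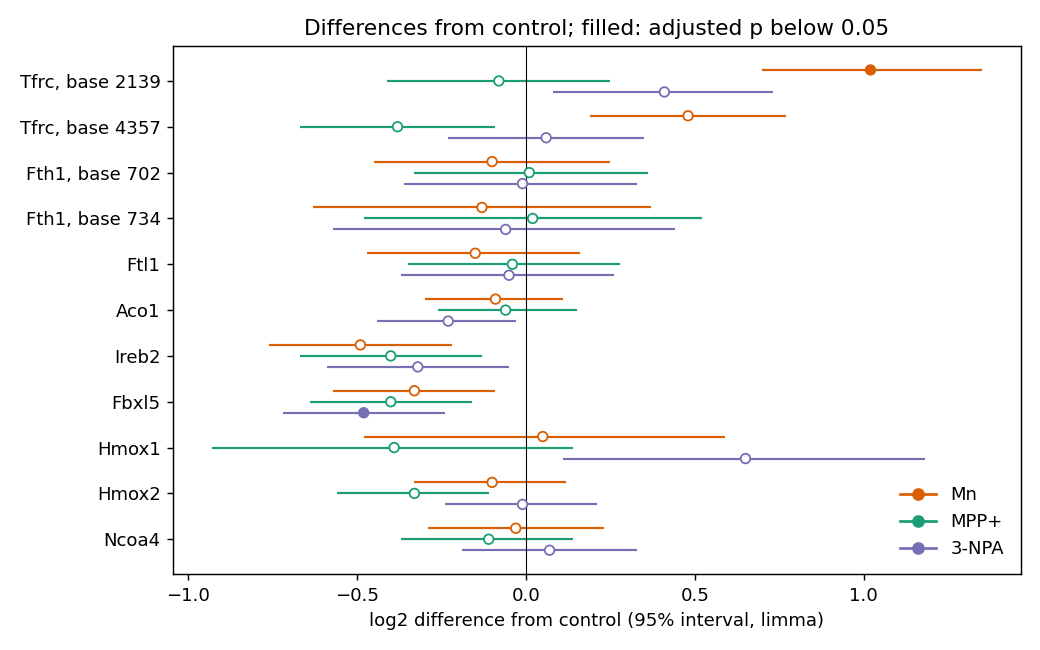
Log2 difference from control of each member probe for each toxin, with limma's 95% interval; filled points have an adjusted p below 0.05. The 2 filled points are Tfrc at base 2139 with Mn (1.02, against a control level that is only a bound) and Fbxl5 with 3-NPA (-0.48).

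The genes whose values over the 8 arrays were most like those of 4 members were found by the root mean square difference of centred log2 levels among 11617 genes. This is a description over 8 arrays of 4 groups, and the order among so many genes is not tested. For Tfrc at base 4357, which itself varied by 0.31 around its mean, they were Tm4sf1 (0.11), Nid2 (0.12) and Hltf (0.12). Hmox1, which varied by 0.41, was closest to Ifngr1 (0.12), Numb (0.13) and Fxyd3 (0.14). The ferritins varied less and had these nearest genes: Fth1 at base 734 (0.18) to the ribosomal protein genes Rpl19 (0.06) and Rpl14 (0.07) and to Ceacam9 (0.08), and Ftl1 (0.11) to Actg1 (0.03), Gabpb1l (0.05) and Rpl37a (0.05).

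Genes that work beside the members were described by lists drawn from knowledge of the pathways, by counts of called probes and medians, with no test of the list. The counts stand beside the shares over all probes: 4.16% higher and 2.9% lower with Mn, 7.09% and 6.04% with MPP+, and 21.6% and 15.4% with 3-NPA. The medians stand beside -0.01, 0.02 and 0.05. Every toxin in which a named probe was called is given.

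Of genes for iron uptake and export, 23 probes of 17 genes were tested, and with Mn 1 rose and 5 fell, with MPP+ 1 and 5, and with 3-NPA 5 and 8 (medians -0.27, -0.24 and -0.25). Slc40a1, ferroportin, the iron exporter, fell with Mn on 1 probe (-0.84 ± 0.11, adjusted p = 0.0109) and rose with 3-NPA (1.46 ± 0.11, adjusted p = 0.000455), and was not called with MPP+ (-0.18). Its other probe gave -0.68 with Mn (adjusted p = 0.111) and 1.02 ± 0.21 with 3-NPA (adjusted p = 0.0124). Slc11a2, DMT1, which carries iron and manganese into the cytosol, fell with 3-NPA on its 3 probes (-1.25 ± 0.14, -0.98 ± 0.08 and, on A_44_P482658, -0.41 ± 0.08, adjusted p = 0.00175, 0.000677 and 0.0115). With Mn it fell on the first (-0.68, adjusted p = 0.047) and the last of these (-0.46 ± 0.08, adjusted p = 0.0284), and with MPP+ on the first (-0.64, adjusted p = 0.0382). On the first probe the Mn call was lost without any 1 array other than control array 2 (adjusted p = 0.126 without control array 1). The MPP+ call was lost without control array 1 (adjusted p = 0.109), either MPP+ array or either 3-NPA array.

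Cp, the ferroxidase ceruloplasmin, fell with 3-NPA on both tested probes (-0.51 ± 0.10 on A_64_P092201 and -1.21 ± 0.16 on A_64_P036925, adjusted p = 0.0104 and 0.00283). The first was called higher with Mn (0.62 ± 0.10, adjusted p = 0.0223; 0.21 on the second), and the second lower with MPP+ (-0.92 ± 0.16, adjusted p = 0.0197; -0.13 on the first). Steap1, a metalloreductase family member, fell with Mn (-0.83 ± 0.15, adjusted p = 0.0313) and MPP+ (-0.69 ± 0.15, adjusted p = 0.0358). Hamp, hepcidin, fell with MPP+ (-0.92 ± 0.12, adjusted p = 0.00912) and 3-NPA (-0.52 ± 0.12, adjusted p = 0.0198) from a control level that was well above background on only 1 array. Tfr2, the second transferrin receptor, was called higher with MPP+ and 3-NPA (adjusted p = 0.0357 and 0.0177) from a control level not well above background, with no lower bound above 1-fold. Tf, transferrin, was at least 2.7-fold higher with 3-NPA from a control level not well above background (fitted log2 difference 2.18 ± 0.64, adjusted p = 0.0407).

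Of genes for iron chaperones, mitochondrial iron and iron-sulphur clusters, 27 probes of 21 genes were tested, with 1 higher and 1 lower with Mn, 3 and 1 with MPP+, and 7 and 5 with 3-NPA (medians -0.08, 0.10 and 0.02). Slc25a37, mitoferrin 1, which brings iron into mitochondria, rose by 0.98 ± 0.18 with Mn (adjusted p = 0.0326), 1.01 ± 0.18 with MPP+ (adjusted p = 0.0212) and 1.66 ± 0.18 with 3-NPA (adjusted p = 0.00147). Hspa9, the mitochondrial chaperone of cluster assembly, rose with MPP+ (1.21 ± 0.11, adjusted p = 0.00332). Nfu1, a cluster carrier, rose with MPP+ and 3-NPA by 0.76 ± 0.09 each (adjusted p = 0.00694 and 0.00223). Isca1, another carrier, fell on 1 probe with Mn, MPP+ and 3-NPA (-0.43, -0.43 and -0.49, adjusted p = 0.0442, 0.0304 and 0.00839). Its other probe gave -0.02, 0.20 and 0.17, and the mean over both was not called (adjusted p = 0.333, 0.582 and 0.378). Cisd2, an iron-sulphur protein, fell with 3-NPA on 1 probe (-0.72 ± 0.11, adjusted p = 0.00492), while its other probe gave 0.02.

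Of the partners of FBXL5, of cytosolic cluster assembly and of NCOA4, 14 probes of 13 genes were tested, with 1 higher with Mn, 0 called with MPP+, and 0 higher and 5 lower with 3-NPA (medians -0.06, 0.02 and -0.24). With 3-NPA, Rbx1, the RING subunit of the ligase that FBXL5 belongs to, fell (-0.89 ± 0.09, adjusted p = 0.00116), as did Nubp2, of the cytosolic scaffold (-0.60 ± 0.09, adjusted p = 0.00499). With Mn, Ndor1 rose (0.61 ± 0.12, adjusted p = 0.0411).

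Of haem synthesis genes, 12 probes of 11 genes were tested, with 0 called with Mn, 1 higher and 2 lower with MPP+, and 1 higher and 3 lower with 3-NPA (medians -0.11, 0.14 and 0.02). Fech, ferrochelatase, which inserts iron into the porphyrin, rose with MPP+ (0.61 ± 0.14, adjusted p = 0.0398) and 3-NPA (1.1 ± 0.14, adjusted p = 0.00239). Urod fell with MPP+ and 3-NPA (-0.45 and -0.36), Tmem14c, a porphyrin carrier, also with both (-0.45 and -0.54), and Ppox with 3-NPA (-0.74 ± 0.11).

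Of haem breakdown and transport genes, 14 probes of 11 genes were tested, with 0 higher and 3 lower with Mn, 3 and 1 with MPP+, and 3 and 5 with 3-NPA (medians -0.05, -0.10 and -0.10). Of the biliverdin reductases, which act after haem oxygenase, Blvra fell with 3-NPA (-0.70 ± 0.09, adjusted p = 0.00244) and Blvrb rose with MPP+ on both probes (0.48 ± 0.09 and 0.52 ± 0.13, adjusted p = 0.0237 and 0.0462). Hpx, hemopexin, fell with Mn (-1.0 ± 0.12, adjusted p = 0.00858) and 3-NPA (-1.39 ± 0.12, adjusted p = 0.000674). Flvcr2 fell with Mn (-1.02 ± 0.14) and rose with 3-NPA (0.63 ± 0.14, adjusted p = 0.0157). Abcg2 fell with Mn, MPP+ and 3-NPA (-0.72, -0.52 and -0.52, adjusted p = 0.0284, 0.0464 and 0.0219). Hp rose with 3-NPA (0.89 ± 0.12), and the haem transporter Slc48a1 rose with MPP+ and 3-NPA (0.73 and 0.98).

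Of the other transcripts known or proposed to hold an iron-responsive element, 12 probes of 8 genes were tested, with 0 higher and 3 lower with Mn, 2 and 1 with MPP+, and 6 and 3 with 3-NPA (medians -0.26, -0.20 and 0.37). Slc40a1 and Slc11a2 belong to this list too and have the values given above. Cdc42bpa, a kinase, rose with MPP+ (0.47 ± 0.08, adjusted p = 0.0206) and 3-NPA (0.82 ± 0.08, adjusted p = 0.0012). Cdc14a, a phosphatase, rose with 3-NPA on a probe measured in control (0.62 ± 0.10, adjusted p = 0.00605). Its other probe was called higher with MPP+ and 3-NPA (adjusted p = 0.0263 and 0.00336) from a control level not well above background. With normexp correction the MPP+ value of that probe turned to -0.03, and the 3-NPA value was 0.16 and not called (adjusted p = 0.251).

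Hmox1 is a textbook target of NRF2 and BACH1. Of 17 probes of 14 genes of that system, 3 rose and 1 fell with Mn, 6 and 1 with MPP+, and 12 and 0 with 3-NPA, with medians of 0.36, 0.41 and 0.89. Slc7a11, the cystine transporter subunit, rose by 3.43 ± 0.11 with Mn, 4.04 ± 0.11 with MPP+ and 3.87 ± 0.11 with 3-NPA (adjusted p = 0.000681, 0.000177 and 7.56e-05). Its second probe, not well above background in control, was not called (adjusted p = 0.324, 0.132 and 0.171). Nqo1, a quinone reductase, rose with Mn (1.17 ± 0.14, adjusted p = 0.0104), MPP+ (1.5 ± 0.14, adjusted p = 0.00362) and 3-NPA (2.63 ± 0.14, adjusted p = 0.0002), from a control level well above background on 1 of 2 arrays. Maff was at least 1.83-fold higher with Mn and at least 1.8-fold with 3-NPA (adjusted p = 0.0195 and 0.00525). Gclc fell with MPP+ (-0.46 ± 0.10) and rose with 3-NPA (0.43 ± 0.10, adjusted p = 0.0214). Me1 fell with Mn on 1 probe (-0.45 ± 0.10) and was not called on the other (-0.40, adjusted p = 0.0984).

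Many calls in these lists were lost on leaving out at least 1 array. With Mn, the named calls that held without each array in turn were those of Slc40a1, Hpx, Flvcr2, Slc7a11 and Nqo1, and with MPP+ those of Hspa9, Slc7a11 and Nqo1. With 3-NPA, the calls of Abcg2, Flvcr2, Gclc, Hamp, Isca1, Tf, Tfr2 and Urod were each lost without at least 1 array. The same held for Cp on A_64_P092201, Slc11a2 on A_44_P482658 and Slc40a1 on its other probe (adjusted p up to 0.0694, 0.0708 and 0.0662), and the remaining 3-NPA calls named from these lists held.

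**Figure D4:**
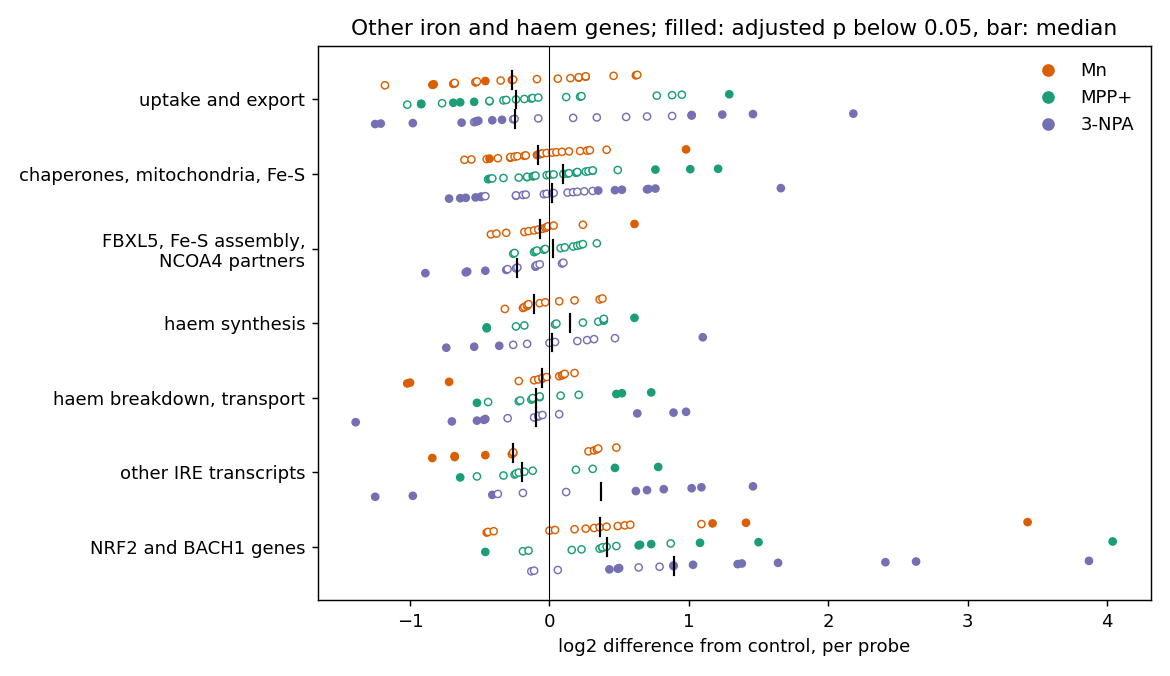
Log2 difference from control of each tested probe in 7 lists of other iron and haem genes, by toxin; filled points have an adjusted p below 0.05 and black bars are medians. The NRF2 and BACH1 genes lie to the right with 3-NPA (median 0.89), with Slc7a11 at 3.43 to 4.04 in each toxin, while the uptake and export genes spread to both sides.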

How the data were processed

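RNA of 8 samples was hybridised to 8 single-colour arrays, 2 for each of 4 groups, and spots were read with Agilent Feature Extraction 11.5.1.1 on the rn4 build, per the file headers. Per the file headers, the processed signal used is an intensity after background subtraction, not normalized across arrays. A value table of log2 values deposited by the authors, whose software is not given in the sources used here, served as an alternative. Of 30367 probes, 30328 were used (39 had every spot marked as an outlier on an array), and log2 intensities of the spots of a probe were averaged and set relative to each array's 75th percentile. The 19460 probes with more than 0.5 of spots marked well above background on both arrays of a group were fitted with limma 3.58.1 (R 4.3.3) as 4 group means, with 4 residual and 2.07 prior degrees of freedom. Low processed signals can hold surrogate values, which can compress or shift differences of dim probes. Slc6a3 on A_44_P314969, not well above background on any array, averaged -6.79 in control. With Mn, MPP+ and 3-NPA it averaged -8.33, -9.04 and -8.77. With no filter on dim probes, the median log2 difference from control over all probes was -0.22, -0.22 and -0.27. A fall of a dim probe can therefore arise from the floor alone. With 2 arrays against 2, an exact permutation test cannot go below 0.333 and was not used. The members, lists, named genes and alternatives were chosen with earlier results of these data known. Named genes were all members, for each list and toxin up to 2 called probes per direction with the largest difference, and the 3 genes most alike to 4 members; the ferritin-like genes, the other probes of the named list genes and their calls with the other toxins were added after their values were seen. A gene so chosen is not reported here. The fit was also run on data simulated from the mean levels and spread of these arrays. Alternatives covered background correction, scaling, filters, probe summaries, variance models, subsets of arrays and a replicate block. Sequences came from the array files and RefSeq (GRCr8).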

Additional observations from a re-analysis of the deposited data

How the results depend on the processing

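The main counts of called members were 1 (Mn), 0 (MPP+) and 1 (3-NPA) against control, and 2 (Mn against MPP+), 2 (Mn against 3-NPA) and 4 (MPP+ against 3-NPA). In that order they were 1, 1, 2, 2, 2 and 4 with normexp, 1, 1, 2, 2, 1 and 3 with quantile normalization, 1, 0, 3, 2, 2 and 2 with array medians, 3, 1, 1, 2, 0 and 1 with no filter, 2, 3, 3, 1, 1 and 3 with the filter on all 8 arrays, 0, 1, 1, 1, 1 and 3 with the brightest probe, 1, 1, 1, 1, 1 and 3 with the mean over probes, 2, 3, 3, 2, 2 and 3 with trend and robust variances, 0, 0, 1, 2, 1 and 4 when arrays were weighted, 0, 0, 1, 1, 0 and 3 on the 4 arrays of a pair alone, and 1, 0, 0, 1, 0 and 1 at a change of at least 2-fold. The deposited table and the looser rule on background gave the main counts, as did the 6 arrays without 3-NPA where it applies. Over all probes, the shares called against control (Mn, MPP+, 3-NPA) were 27.3%, 34% and 45.1% with no filter, 9.58%, 18.5% and 42.7% with the filter on all 8 arrays, 9.06%, 16.5% and 39.6% with trend and robust variances, 2.33%, 11.9% and 33.5% with array weights, 0.036%, 4.76% and 28.6% on 4 arrays and 2.67%, 3.67% and 11.9% at 2-fold. Against control they were 6.3%, 15.5% and 34.7% with normexp, 8.63%, 15.5% and 37.1% with quantile normalization, and 6.09%, 12.3% and 35.1% with array medians. The brightest probe gave 7.66%, 13.9% and 38.3%, and the mean over probes 7.43%, 14.1% and 38%. Between toxins, no filter gave 1.93%, 12% and 13.7% and 4 arrays 1.61%, 20.7% and 37.6%. Leaving out 1 array gave 0 to 1, 0 to 0, 0 to 2, 0 to 2, 0 to 3 and 0 to 4. Over the probes tested, the difference between samples 1 and 2 of a group was compared with that of each other group by correlation. The correlations ran from -0.02 to 0.11, apart from 0.48 for Mn and 3-NPA, which shared array columns. A shared effect of array position in that pair was not tested. The numbers were not taken as pairs in the main fit, and the fit with the replicate block gave 1, 0, 1, 2, 2 and 2.

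Signs turned only for uncalled member differences and for Cdc14a with MPP+ (normexp, -0.03). With Mn, Ncoa4 turned to 0.03 (quantile) and 0.04 (median). With MPP+, Tfrc at base 2139 turned to 0.04 (quantile) and 0.03 (median), Fth1 at base 702 to -0.02 (normexp) and -0.05 (quantile), Fth1 at base 734 to -0.05 and -0.07, Ftl1 to 0.08 (median) and Aco1 to 0.00 (normexp) and 0.05 (median). With 3-NPA, Tfrc at base 4357 turned to -0.08 (median), Fth1 at base 702 to 0.04 (quantile), Hmox2 to 0.06 (normexp) and 0.04 (quantile), and Ncoa4 to -0.06 (normexp), -0.07 (quantile) and -0.07 (median). Without 1 array, ranges that crossed 0 were, with Mn, -0.26 to 0.06 and -0.35 to 0.08 (Fth1), -0.23 to 0.34 (Hmox1) and -0.15 to 0.09 (Ncoa4). With MPP+ they were -0.17 to 0.01 (Tfrc at base 2139), -0.03 to 0.06 and -0.01 to 0.05 (Fth1) and -0.08 to 0.01 (Ftl1). With 3-NPA they were -0.04 to 0.16 (Tfrc at base 4357), -0.14 to 0.11 and -0.31 to 0.18 (Fth1), -0.17 to 0.07 (Ftl1) and -0.07 to 0.05 (Hmox2). Of 2408 values under other settings, 1977 kept direction and side of the threshold, 368 lost the call, 27 gained one and 36 turned sign; for pairs of toxins, named list genes and ferritin-like probes these were added after seeing the data. The cause was not tested. The signal over background limits Tfrc at base 2139, and 2 arrays per group limit every interval.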
